A study of Homo sapiens with 6 samples.

Results

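The SR splicing factors are the serine and arginine rich proteins of the SRSF gene family. The members were taken by symbol from the deposited gene table, and all 10 of the listed genes (SRSF1 to SRSF7, SRSF9, SRSF10 and SRSF11) were found among 74852 genes, each in 1 row. SRSF2 shares its row with MIR636, a microRNA of the same locus.

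The cells were MDA-MB-231, an established human line of triple negative breast cancer with mesenchymal features. Non-targeting siRNAs were given to 3 of the libraries (si-CTRL) and siRNAs against the mitotic kinase NEK2 to the other 3 (si-NEK2), in each case as a pool. Per the sample records, both groups were transfected on 2 occasions and collected 24 h after the latter, and they share cell line, medium and reagent. The methods of the study give a longer time, counted from transfection, and name no second occasion. Whether the accounts differ cannot be told, and the records were followed here. PolyA-enriched RNA was sequenced, and the records do not say whether both groups were prepared in 1 batch, so that a batch and the silencing cannot be told apart. As each group received a single pool, loss of NEK2 and other effects of that pool cannot be told apart either. The records do not name separate cultures for the replicates, so that p-values measure the spread between these libraries, which may be technical.

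SR proteins bind exonic enhancers in the pre-mRNA through RNA recognition motifs and recruit the spliceosome through a tail of arginine and serine repeats, the RS domain. Phosphorylation of that domain by the SRPK and CLK kinases sets their import into the nucleus, their storage in speckles and their activity. Most SR genes carry a poison exon whose inclusion sends the transcript to nonsense-mediated decay (NMD), by which the proteins control their own level. SRSF1 is a proto-oncogene of breast epithelium and a substrate of NEK2. The comparison of si-NEK2 with si-CTRL cells therefore asked whether transcripts of the family differed when the kinase was silenced. It does not measure phosphorylation.

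The RS repeats show how far members of the family differ. They are printed for SRSF1 with SRSF9, SRSF3 with SRSF7 and SRSF5 with SRSF6, which are among the pairs whose reads are compared further on. They were read from the coding sequence of the principal GENCODE 29 transcript (GRCh38) as the longest run of alternating arginine and serine codons, with serine codons in capitals.
SRSF1: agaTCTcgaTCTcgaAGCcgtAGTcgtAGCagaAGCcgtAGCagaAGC
SRSF9: TCAcggTCTcggTCT
SRSF3: TCTaggTCTcgtAGTcgaTCTaggTCA
SRSF7: TCGaggTCAagaTCAagaTCCaggTCT
SRSF5: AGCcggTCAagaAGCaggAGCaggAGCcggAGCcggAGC
SRSF6: AGTcgcTCCcgtTCCaggTCGcggAGC
The run of SRSF1 lies in exon 4 of 4 on the minus strand, chr17:58005496-58005543, and spans codons 204 to 219. Its closest relative SRSF9 has the shortest run of the 10 members, with 5 codons at chr12:120462094-120462108 on the minus strand, also in exon 4 of 4. Over the whole coding sequence SRSF9 has 9 adjacent pairs of an arginine and a serine codon, SRSF1 has 31, and SRSF4 has the most with 113. The run of SRSF7 lies in exon 6 of 8 on the minus strand at chr2:38746714-38746740 and that of SRSF5 on the plus strand at chr14:69771279-69771317. The runs of SRSF3 (plus strand, between 36601781 and 36601974 of chromosome 6) and SRSF6 (plus strand, between 43460588 and 43460718 of chromosome 20) each cross the junction of exons 5 and 6. In the same annotation each member has at least 1 transcript marked for NMD, with 3 for SRSF1 and 6 for SRSF7, and a gene value adds such transcripts to the coding ones.

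The silencing and the cells were checked first. NEK2 had 3702, 3323 and 3290 normalized counts in si-CTRL replicates 1 to 3 and 284, 362 and 388 in si-NEK2 replicates 1 to 3, a ratio of means of 0.10, where a normalized count is a read divided by the DESeq2 size factor of its library. The libraries held between 52625492 and 87454509 reads on genes. VIM and CD44, which mark mesenchymal breast cells, had means of 157264 and 54108 normalized counts in si-CTRL cells, whereas the receptor genes ESR1 and PGR and the epithelial cadherin CDH1 were below 10 on average. On the first principal component, with 61.7% of the variance, the groups lay apart. On the second, with 16.2%, si-NEK2 replicates 1 to 3 lay at -4.1, -4.4 and 16.9. There si-CTRL replicate 1 lay at 38.9 and the other controls at -26.1 and -21.2. Values without this library are given beside results of the SRSF genes that it moves and beside the counts of the partner lists. Fits of single genes outside the SRSF family, MYC among them, are given with all 6 libraries only.

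The SR genes moved little. Of the 10 members, 3 rose in si-NEK2 cells by limma with a threshold of 0.05 on the Benjamini-Hochberg adjusted p, namely SRSF9, SRSF5 and SRSF3, and 0 fell. Over all 18717 genes tested, 43.1% passed in either direction and 21.8% passed upward. The 10 members had 30% called, all upward, between these shares, and the difference from either was not tested. Of the members 0 reached the thresholds of the study, a p of at most 0.05 with a fold change of at least 1.5, which 22.5% of all genes reached. At an unadjusted p of at most 0.05 limma also called 3 members, and edgeR and DESeq2 also put 0 members past the thresholds of the study. SR genes are abundant, and among the 4167 genes with a mean at least that of the lowest member, 57.1% passed the adjusted p and 14.3% the thresholds of the study. The median absolute log2 fold change was 0.14 over the members, 0.27 over those 4167 genes and 0.33 over all genes. The median standard error of the members, 0.083, was close to that of the abundant genes, 0.076. For 5 of the 10 members the libraries of the groups did not overlap, 4 with si-NEK2 above and 1 with si-NEK2 below, beside 55% of all genes.

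**Figure D1:**
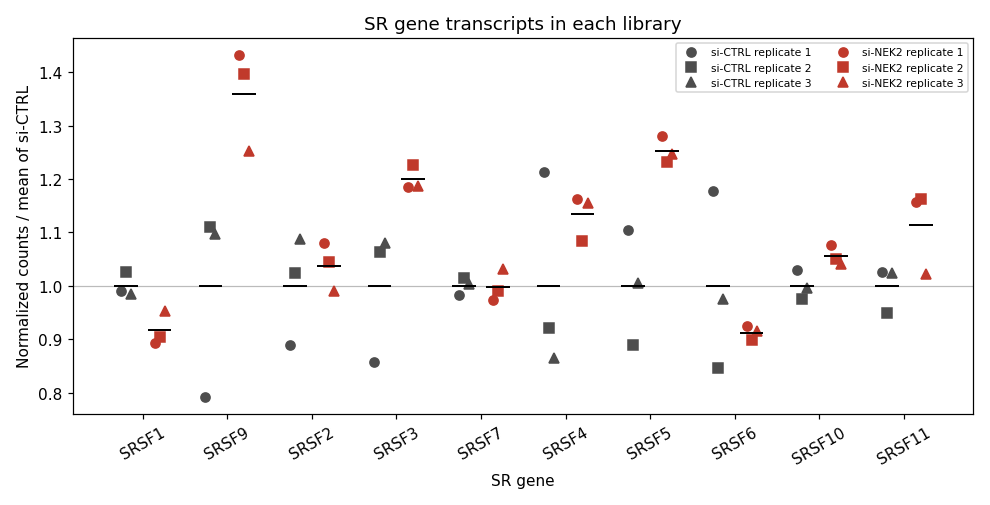
Normalized counts of each SR gene in each library (vertical axis, linear), divided by the mean of the 3 si-CTRL libraries. Grey points are si-CTRL and red points si-NEK2, the shape gives the replicate and the short line the group mean. All red points lie above all grey points for SRSF9, SRSF3, SRSF5 and SRSF10 and below them for SRSF1, and si-CTRL replicate 1 (grey circle) lies far from the other controls for SRSF9, SRSF2, SRSF3, SRSF4 and SRSF6.

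SRSF1, the prototype of the family, acts in splice site choice, mRNA export and translation. Its row (GSHG0013597, hg19, chromosome 17 from 56078282 to 56084707) had 24064, 24922 and 23943 normalized counts in si-CTRL replicates 1 to 3 and 21722, 21956 and 23159 in si-NEK2 replicates 1 to 3. All si-NEK2 libraries were below all si-CTRL libraries, by a narrow margin. The mean was 24310 ± 534 (SD, n = 3) in si-CTRL and 22279 ± 771 (SD, n = 3) in si-NEK2 cells. The log2 fold change was -0.13 (standard error, SE, 0.06, 95% interval -0.26 to 0.01) and did not pass the test (adjusted p = 0.116 from limma). Its interval holds no fall beyond 0.835 times the control level. SRSF1 passed as lower in 4 of 17 alternatives, which included every other scaling of the libraries run in limma. These were rescaling to the same total (-0.25, adjusted p = 0.00895), upper quartile (-0.19, adjusted p = 0.0275) and quantile scaling (-0.27, adjusted p = 0.00723, limma). It also passed in the fit without si-CTRL replicate 1 (-0.13, adjusted p = 0.0398 from limma). SRSF1 did not pass in edgeR (adjusted p = 0.0833) or in DESeq2 (adjusted p = 0.0993). Its adjusted p-values over the alternatives lay between 0.00723 and 0.298. The annotated gene AC015813.2 overlaps 3887 bases of SRSF1 on the same strand, and a pseudogene carries its name, so that reads may be split between them.

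SRSF9 is the closest relative of SRSF1, with the same pair of RNA recognition motifs and a short RS tail. With all 6 libraries it had the largest log2 fold change of the family, whereas without si-CTRL replicate 1 SRSF5 (0.41) and SRSF4 (0.34) were above it. Its row (GSHG0007854, hg19, chromosome 12 from 120899471 to 120907558) had 11423, 16005 and 15829 normalized counts in si-CTRL replicates 1 to 3 and 20655, 20130 and 18050 in si-NEK2 replicates 1 to 3. No si-NEK2 library reached down to a control library, and si-CTRL replicate 1 was far below the other controls. The mean rose from 14419 ± 2596 (SD, n = 3) to 19612 ± 1378 (SD, n = 3), a ratio of 1.36, with a log2 fold change of 0.46 (SE 0.13, 95% interval 0.17 to 0.75, adjusted p = 0.0181 from limma). Without si-CTRL replicate 1 it was 0.30 (adjusted p = 0.0026 from limma). Under the 17 alternatives it lay between 0.30 and 0.54, with adjusted p-values from 0.0026 to 0.0891. The call was lost without si-NEK2 replicate 1 (0.42, adjusted p = 0.0701 from limma), without si-NEK2 replicate 2 (0.44, adjusted p = 0.0672 from limma) and with equal total scaling (0.33, adjusted p = 0.068 from limma), as well as with quantile normalization (0.31, adjusted p = 0.0891 from limma) and without an intensity trend (adjusted p = 0.061 from limma). In GENCODE the gene GATC overlaps 2082 bases of SRSF9 on the other strand, and the strand setting of the counting is not given in the sources used here, so that reads of GATC may be included. A pseudogene carries the name of SRSF9 too, so that reads may be split between them.

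SRSF2 marks nuclear speckles and binds both purine and pyrimidine rich enhancers. Its row (GSHG0013763, hg19, chromosome 17 from 74730199 to 74733493) had 26228, 30215 and 32088 normalized counts in si-CTRL replicates 1 to 3 and 31860, 30806 and 29209 in si-NEK2 replicates 1 to 3. The groups overlapped, and the si-NEK2 libraries lay within the range of the controls. The log2 fold change of 0.06 (SE 0.08, 95% interval -0.13 to 0.25) did not pass the test (adjusted p = 0.611 from limma), and its sign changed without si-CTRL replicate 1 and under 3 other scalings of the libraries. The protein-coding genes AC005837.2 and MFSD11 overlap 3260 and 1510 bases of SRSF2 on the other strand, and their reads cannot be told apart without the strand setting.

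SRSF3 and SRSF7 are the small SR proteins that hand mRNA to the export receptor NXF1 and also act in 3-prime end choice. SRSF3 (GSHG0025685, hg19, chromosome 6 from 36562090 to 36572244) had the highest normalized counts of the family, with 38694, 48010 and 48768 in si-CTRL replicates 1 to 3 and 53496, 55416 and 53577 in si-NEK2 replicates 1 to 3. The si-NEK2 libraries lay close together and above every control. The mean rose from 45157 ± 5610 (SD, n = 3) to 54163 ± 1086 (SD, n = 3), with a log2 fold change of 0.27 (SE 0.09, 95% interval 0.06 to 0.48, adjusted p = 0.0414 from limma). This call was the least firm of the 3, since it was lost in 10 of 17 alternatives, edgeR among them, with adjusted p-values from 0.0107 to 0.644. It was lost whichever si-NEK2 library was left out, with an adjusted p = 0.0957 without replicate 1, 0.133 without replicate 2 and 0.0907 without replicate 3 (limma). Without si-CTRL replicate 1 the log2 fold change was 0.16 (adjusted p = 0.0107 from limma).

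SRSF7, the sister of SRSF3 with an added zinc knuckle, had the smallest absolute log2 fold change of the family with the deposited size factors. Its row (GSHG0017564, hg19, chromosome 2 from 38970741 to 38978636) had 9620, 9924 and 9815 normalized counts in si-CTRL replicates 1 to 3 and 9530, 9686 and 10098 in si-NEK2 replicates 1 to 3. The groups overlapped fully, and the controls varied by 1.57% of their mean (coefficient of variation). The ratio of the group means was 0.999, and the log2 fold change had a 95% interval from -0.13 to 0.13 (adjusted p = 0.977 from limma), that is between 0.911 and 1.09 times the control level. With equal total scaling the log2 fold change was -0.13, farther from 0 than that of SRSF2, SRSF4, SRSF10 and SRSF11.

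SRSF4, SRSF5 and SRSF6 are close paralogs with a pair of RNA recognition motifs and long RS tails. SRSF5 (GSHG0008944, hg19, chromosome 14 from 70193616 to 70238722) had 18931, 15244 and 17230 normalized counts in si-CTRL replicates 1 to 3 and 21949, 21119 and 21350 in si-NEK2 replicates 1 to 3. All si-NEK2 libraries exceeded all controls. The mean rose from 17135 ± 1846 (SD, n = 3) to 21473 ± 428 (SD, n = 3), with a log2 fold change of 0.33 (SE 0.08, 95% interval 0.14 to 0.52, adjusted p = 0.0112 from limma). By the number of alternatives passed, it was the firmest call of the family. It passed in 15 of 17 alternatives, and it was lost with equal total scaling (0.20, adjusted p = 0.0717 from limma) and quantile normalization (0.17, adjusted p = 0.139 from limma). Over the alternatives its log2 fold change lay between 0.17 and 0.41. As a share of the summed reads of the family, however, the groups of SRSF5 overlapped (two-sided exact permutation p = 0.4). That share was 12.0% in si-CTRL replicate 1 and 11.7%, 11.3% and 11.7% in si-NEK2 replicates 1 to 3.

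SRSF4 (GSHG0001915, hg19, chromosome 1 from 29474250 to 29508637) had 3759, 2854 and 2680 normalized counts in si-CTRL replicates 1 to 3 and 3604, 3358 and 3576 in si-NEK2 replicates 1 to 3. The groups overlapped through si-CTRL replicate 1, which was above every si-NEK2 library. The log2 fold change of 0.20 (SE 0.12, 95% interval -0.08 to 0.47) did not pass the test (adjusted p = 0.219 from limma). Without si-CTRL replicate 1 it was 0.34 (adjusted p = 0.000921 from limma), and its adjusted p-values over the alternatives lay between 0.000921 and 0.681. SRSF6 (GSHG0018758, hg19, chromosome 20 from 42086504 to 42092242), an oncogene of skin and lung in other settings, had 8003, 5748 and 6626 normalized counts in si-CTRL replicates 1 to 3. In si-NEK2 replicates 1 to 3 it had 6276, 6103 and 6215, within the range of the controls. Its log2 fold change of -0.12 (SE 0.11, 95% interval -0.37 to 0.13, adjusted p = 0.416 from limma) moved to 0.01 without si-CTRL replicate 1.

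SRSF10 and SRSF11 are the divergent members. SRSF10 acts as a general repressor when dephosphorylated in mitosis or after heat shock. Its row (GSHG0032608, hg19, chromosome 1 from 24290837 to 24307417) had 13137, 12441 and 12712 normalized counts in si-CTRL replicates 1 to 3 and 13734, 13402 and 13286 in si-NEK2 replicates 1 to 3. The groups did not overlap, but the log2 fold change of 0.08 (SE 0.06, 95% interval -0.05 to 0.21) did not pass the test (adjusted p = 0.306 from limma), and it was below 0 with equal total scaling and quantile normalization. A pseudogene carries the name of SRSF10 as well. SRSF11 (GSHG0000622, hg19, chromosome 1 from 70671365 to 70718730) had 3695, 3420 and 3686 normalized counts in si-CTRL replicates 1 to 3 and 4167, 4184 and 3679 in si-NEK2 replicates 1 to 3. Its si-NEK2 replicate 3 fell among the controls. The antisense gene AL353771.1 overlaps it. The log2 fold change was 0.15 (SE 0.08, 95% interval -0.02 to 0.33, adjusted p = 0.135 from limma).

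**Figure D2:**
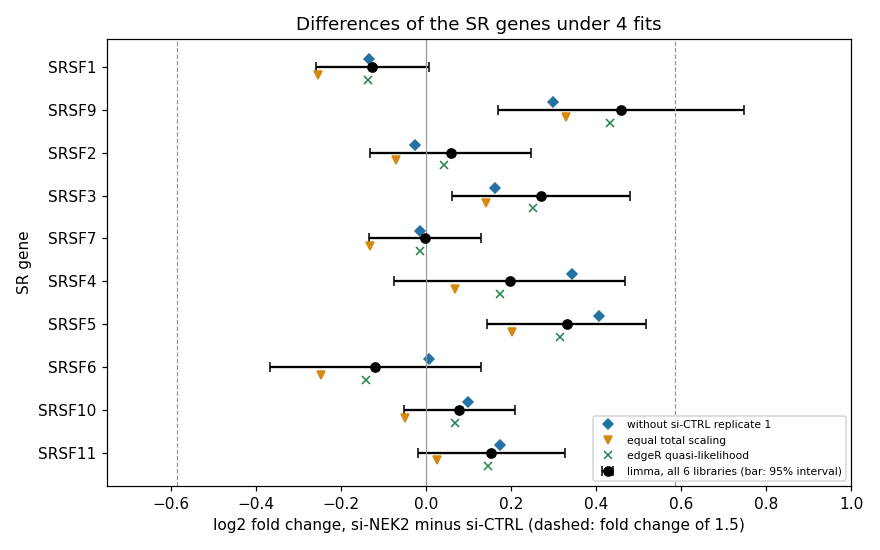
Log2 fold change of each SR gene, si-NEK2 minus si-CTRL (horizontal axis), from limma with its 95% interval (black), without si-CTRL replicate 1 (blue), after equal total scaling (orange) and in edgeR (green). Dashed lines mark a fold change of 1.5. The black points of all 10 members lie inside those lines, from -0.13 for SRSF1 to 0.46 for SRSF9, and the orange points lie to the left of the black ones.

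The control library that stood apart weighed on these values. In si-CTRL replicate 1, SRSF9, SRSF3 and SRSF2 lay below the mean of the other 2 controls by a log2 difference of -0.48, -0.32 and -0.25, and SRSF4, SRSF6 and SRSF5 lay above it by 0.44, 0.37 and 0.22. For 6 of the 10 members this difference between controls was larger than the difference between the groups. The median absolute difference was 0.23 over the members and 0.22 over all genes tested. Without this library 5 members passed an adjusted p of at most 0.05 in limma, SRSF3, SRSF4, SRSF5 and SRSF9 as higher and SRSF1 as lower, beside 49.9% of all genes. Of the members that did not pass in either fit, SRSF7 was then at -0.01, SRSF10 at 0.10 and SRSF11 at 0.17 on the log2 scale. The part of this library in the results was not tested further.

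The scaling of the libraries set the level of the whole family. The 10 members together summed to 166571 ± 8140 in si-CTRL and 185118 ± 2561 in si-NEK2 cells (normalized counts, SD, n = 3 each). A share of all reads on genes divides by the total of the library, as equal total scaling does, and is no separate check of it. On that scale the members took 0.254% ± 0.0127 (SD, n = 3) in si-CTRL and 0.258% ± 0.0031 (SD, n = 3) in si-NEK2 cells. The difference of 0.00426 percentage points was smaller than the SD of the controls (two-sided exact permutation test, p = 0.9). Leaving out si-CTRL replicate 1, the controls had a mean of 0.261%, and the difference was below 0, at -0.0030 percentage points. The median log2 fold change of the members was 0.12 with the deposited size factors and -0.01 with equal total scaling, which moved the median of all genes from 0.01 to -0.11. With equal total scaling 0 members passed as higher and SRSF1 passed as lower. The size of the rise of SRSF3, SRSF5 and SRSF9 therefore depends on the scaling, while its sign did not change under any of the 17 alternatives.

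Ratios of reads between members of a library do not depend on the scaling, and 6 pairs of related members were compared. SRSF9 had 0.475, 0.642 and 0.661 reads for each read of SRSF1 in si-CTRL replicates 1 to 3 and 0.951, 0.917 and 0.779 in si-NEK2 replicates 1 to 3. The groups did not overlap, and the log2 ratio went from -0.77 ± 0.26 to -0.19 ± 0.15 (SD, n = 3 each), a difference of 0.58, or 0.43 without si-CTRL replicate 1. SRSF5 had 2.37, 2.65 and 2.60 reads for each read of SRSF6 in si-CTRL replicates 1 to 3 and 3.50, 3.46 and 3.44 in si-NEK2 replicates 1 to 3, a log2 difference of 0.45. The 3 si-NEK2 libraries were closer to each other than to any control.

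The ratio of SRSF3 to SRSF7 (log2 difference 0.27, or 0.18 without si-CTRL replicate 1) and that of SRSF4 to SRSF6 (0.32) also did not overlap between the groups. For SRSF5 over SRSF4 (0.13, exact permutation p = 0.4) and SRSF10 over SRSF11 (-0.08, exact permutation p = 0.3) they overlapped. The 4 pairs without overlap had an exact permutation p = 0.1 (two-sided, adjusted p = 0.15 over the 6 pairs), which is the smallest that 3 libraries against 3 allow, so that no ratio could pass 0.05. As a share of the summed reads of the family, SRSF1 had 14.6% ± 0.74 in si-CTRL and 12.0% ± 0.59 in si-NEK2 cells, and SRSF9 had 8.62% ± 1.20 and 10.6% ± 0.60 (SD, n = 3 each). SRSF3 held the largest share, with 27.0% ± 2.16 and 29.3% ± 0.59. The groups did not overlap for these 3 members or for SRSF7, at 5.88% ± 0.22 and 5.28% ± 0.23 (exact permutation p = 0.1 each, adjusted p = 0.25 over the members). A share also falls when other members rise, and the normalized counts of SRSF7 overlapped, with a ratio of means of 0.999. In normalized counts 55% of all genes did not overlap, and no such background was worked out for shares or ratios. When si-CTRL replicate 1 was left out, the difference went from 2.22 to 0.97 percentage points for SRSF3 and from 1.97 to 1.28 for SRSF9, and it was -2.25 in place of -2.58 for SRSF1. In that comparison SRSF5 also did not overlap, with a difference of 2.12 in place of 1.27 percentage points, nor did SRSF2 (-1.67) and SRSF4 (0.28).

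**Figure D3:**
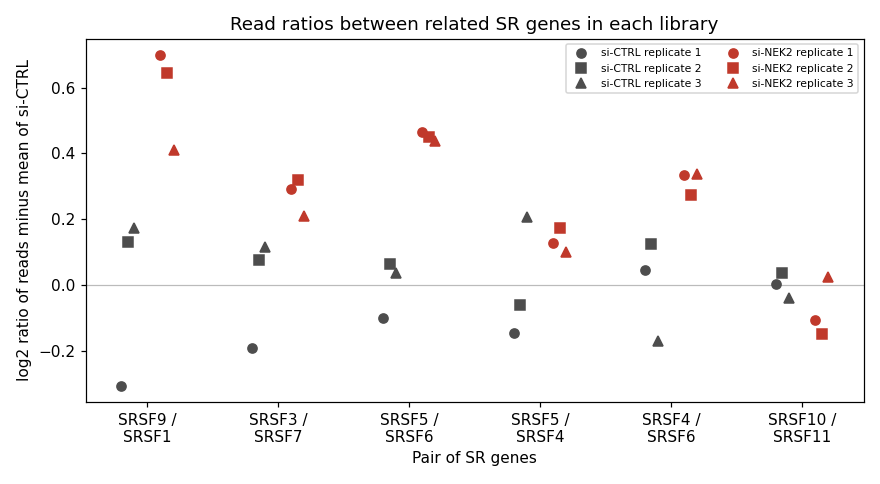
Log2 ratio of reads between 2 related SR genes in each library, minus the mean of the si-CTRL libraries (vertical axis), for 6 pairs. Grey points are si-CTRL and red points si-NEK2, with the shape giving the replicate. The groups are apart for SRSF9 over SRSF1, SRSF3 over SRSF7, SRSF5 over SRSF6 and SRSF4 over SRSF6, and they overlap for SRSF5 over SRSF4 and SRSF10 over SRSF11.

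Levels of different genes can be compared only per length, here per kb of the principal GENCODE transcript. On that scale SRSF1 was the highest in si-CTRL cells, with 16067 ± 353 normalized counts per kb (SD, n = 3), and no control library of SRSF9 reached it. SRSF9 (12006 ± 2162), SRSF3 (10696 ± 1329) and SRSF2 (10229 ± 1037) came next, and each overlapped its neighbour in this order. SRSF10 (7825 ± 215), SRSF5 (6087 ± 656) and SRSF7 (3932 ± 61.8) followed and were each apart from their neighbours. SRSF6 (1570 ± 263) and SRSF4 (1298 ± 243) overlapped, and SRSF11 was the lowest (951 ± 41.2). In si-NEK2 cells SRSF9 had 16330 ± 1147 and SRSF1 14725 ± 509 normalized counts per kb. Their order differed between libraries, as in si-NEK2 replicate 3 SRSF1 held 19.9% and SRSF9 19.6% of the family reads per kb. The order depends on the transcript taken as the length. Per kb of all annotated exons in si-CTRL cells SRSF2 ranked 1, SRSF1 ranked 2 and SRSF9 ranked 4. On that scale SRSF10 went from rank 5 to rank 8, and the si-NEK2 cells were not ranked.

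The other SRSF genes of the annotation were low. SRSF8, a retrogene copy of SRSF2, had means of 545 ± 108 (si-CTRL) and 508 ± 47.8 (si-NEK2) normalized counts (SD, n = 3 each), and its log2 fold change of -0.08 did not pass the test (adjusted p = 0.698 from limma). It was -0.26 without si-CTRL replicate 1 and -0.21 with equal total scaling, and passed in neither. SRSF12 had at most 2 reads in any library and was not tested.

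The start sites of the 3 members that rose are shown as the RefSeq window around the annotated start, which ends 50 bases past it (GRCh38.p14). Matches to 4 searched motifs are in capitals.
SRSF3: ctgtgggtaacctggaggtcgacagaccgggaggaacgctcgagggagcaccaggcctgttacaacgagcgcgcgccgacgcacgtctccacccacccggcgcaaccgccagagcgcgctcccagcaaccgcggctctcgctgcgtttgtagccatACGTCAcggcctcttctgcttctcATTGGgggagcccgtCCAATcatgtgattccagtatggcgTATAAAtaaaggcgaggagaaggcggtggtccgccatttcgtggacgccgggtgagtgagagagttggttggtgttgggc
SRSF5: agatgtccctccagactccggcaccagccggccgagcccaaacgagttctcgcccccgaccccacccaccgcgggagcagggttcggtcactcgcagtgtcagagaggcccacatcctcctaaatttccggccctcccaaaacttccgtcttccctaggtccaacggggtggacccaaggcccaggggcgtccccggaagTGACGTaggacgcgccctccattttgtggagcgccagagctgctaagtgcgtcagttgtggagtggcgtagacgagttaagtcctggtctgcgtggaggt
SRSF9: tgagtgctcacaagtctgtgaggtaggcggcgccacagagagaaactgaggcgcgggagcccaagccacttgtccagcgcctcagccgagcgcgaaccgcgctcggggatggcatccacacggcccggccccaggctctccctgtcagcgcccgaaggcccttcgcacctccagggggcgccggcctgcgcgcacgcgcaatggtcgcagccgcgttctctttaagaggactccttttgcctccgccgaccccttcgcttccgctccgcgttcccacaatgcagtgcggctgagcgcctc
They lie at chr6:36594112-36594411 on the plus strand, chr14:69766892-69767191 on the plus strand and chr12:120469699-120469998 on the minus strand. The motifs were CCAAT (the NF-Y site), CACGTG (a MYC site), TGACGT (the core of the CREB site) and TATAAA, searched on both strands. A match on the other strand reads as ATTGG or ACGTCA here, and no matches overlap. They occur in 34.6%, 7.26%, 7.98% and 11.5% of the 35116 windows of the table. SRSF3 holds 2 matches to CCAAT and 1 each to TGACGT and TATAAA, SRSF5 holds 1 match to TGACGT, and SRSF9 holds 0 matches, so that the 3 windows share no motif among those searched. SRSF1 also holds 1 match to TGACGT. No window of the 9 members with one in the table holds CACGTG, and other forms of the MYC site were not searched. MYC, a known activator of SRSF1 transcription, fell from 5903 ± 1488 to 3232 ± 263 normalized counts (SD, n = 3 each, log2 fold change -0.84, adjusted p = 0.00237 from limma). Its si-CTRL replicate 1 had 7621 normalized counts and the other controls 5055 and 5034. Whether MYC acts on the SR genes here was not tested. A match is a description and not a bound site.

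The genes that act on or with SR proteins were described from lists, by counts beside the same 43.1% of all genes. Of 25 SR-related partners of the spliceosome, 7 rose and 0 fell at an adjusted p of at most 0.05 in limma, with a median log2 fold change of 0.12, as for the SR genes. The speckle scaffold SON (0.36, adjusted p = 0.00199), the RS-domain cyclophilin PPIG (0.33, adjusted p = 0.00549) and the U1 snRNP factor LUC7L3 (0.31, adjusted p = 0.011) had the largest differences (limma). With equal total scaling 2 of the 25 rose and 2 fell, beside 41.9% of all genes in either direction and 13.8% upward. Without si-CTRL replicate 1, 16 rose and 0 fell, beside 49.9% of all genes in either direction and 26.7% upward.

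Of the 9 kinases and import factors of SR proteins, 2 rose and 1 fell. SRPK2, a kinase that loads phosphates on the RS domain in the cytoplasm, had 4296, 3556 and 3564 normalized counts in si-CTRL replicates 1 to 3 and 2083, 2058 and 2219 in si-NEK2 replicates 1 to 3. All its si-NEK2 libraries were far below the controls, and it fell by 0.84 on the log2 scale (SE 0.09, adjusted p = 0.000159 from limma), where the largest absolute value among the SR genes was 0.46. Its paralog SRPK1, named after its values were seen, did not pass the test (0.07, adjusted p = 0.47 from limma). TNPO3, the transportin that carries phosphorylated SR proteins into the nucleus, rose by 0.53 on the log2 scale (SE 0.06, adjusted p = 0.000266 from limma). PRPF4B, a nuclear kinase of spliceosome proteins, rose by 0.30 (SE 0.11, adjusted p = 0.0466 from limma), although its groups overlapped.

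Among the hnRNPs, which often oppose SR proteins at exons, 6 of 21 rose and 2 fell. HNRNPR (-1.37, adjusted p = 2.4e-05), HNRNPA2B1 (-0.78, adjusted p = 9.1e-05) and HNRNPA0 (0.78, adjusted p = 0.00375) had the largest differences (limma). HNRNPA0 had 12118 normalized counts in si-CTRL replicate 1 and 18967 and 18115 in the other controls. Of the hnRNPs 4 passed the thresholds of the study, beside 22.5% of all genes, 14.3% of the 4167 abundant genes and 0 SR genes. Of 10 NMD factors, 5 rose and 0 fell, led by UPF3B (0.74, adjusted p = 0.000605), UPF2 (0.52, adjusted p = 0.000759) and UPF1 (0.38, adjusted p = 0.00179, limma). Of 8 export and exon junction partners, 3 rose and 0 fell, namely the export receptor NXF1 (0.47, adjusted p = 0.00555), the junction helicase EIF4A3 (0.44, adjusted p = 0.0247) and the junction subunit MAGOH (0.38, adjusted p = 0.00381, limma). EIF4A3 had 6510 normalized counts in si-CTRL replicate 1 and 9498 and 9301 in the other controls. Without si-CTRL replicate 1, 4 of the 9 kinases and import factors rose and 1 fell, 9 hnRNPs rose and 4 fell with 2 past the thresholds of the study, 7 NMD factors rose and 0 fell, and 4 export and junction partners rose and 1 fell. These counts of genes that rose or fell stand beside the same 49.9% of all genes. The share of all genes past the thresholds of the study was not counted in that fit. With equal total scaling 1 kinase or import factor rose and 2 fell, 4 hnRNPs rose and 4 fell, 5 NMD factors rose and 1 fell, and 2 export and junction partners rose and 2 fell, beside the same 41.9%. Whether the SR genes differ from these lists was not tested.

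**Figure D4:**
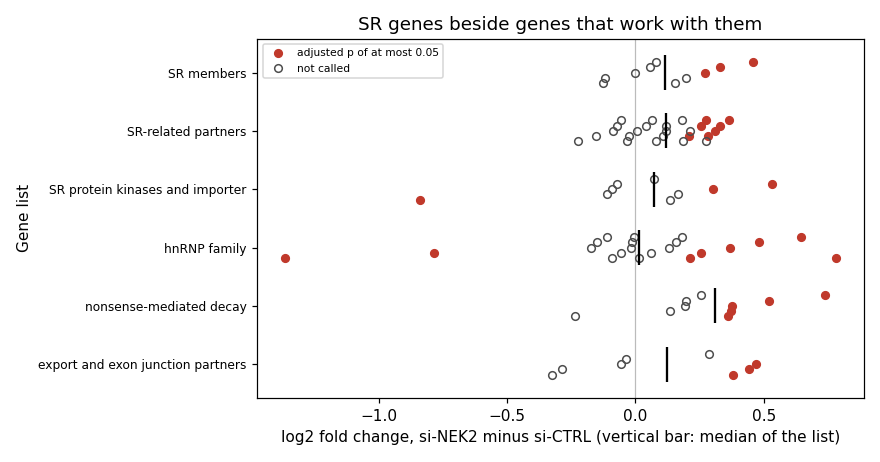
Log2 fold change, si-NEK2 minus si-CTRL (horizontal axis), of each gene in 6 lists. Filled points passed an adjusted p of at most 0.05 in limma, open points did not, and the vertical bar is the median of the list. The SR genes stay between -0.13 and 0.46, whereas SRPK2 at -0.84 and HNRNPR at -1.37 lie farther out.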

How the data were processed

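MDA-MB-231 cells transfected with si-CTRL or si-NEK2 siRNAs were compared, with 3 libraries each. The authors deposited 1 signal per gene and library, that is reads divided by the DESeq2 size factor, with FAST DB genes on hg19. The submitters' processing notes name STAR 2.4.0, SAMtools, Picard and DESeq2. The counter and its strand setting are not given in the sources used here. The labels name a stranded kit. Each value was a whole multiple of 1 read for 100% of values (tolerance 0.01 read), which gave back the reads.

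The test was limma 3.58.1 (R 4.3.3) with an intensity trend, run on log2(value + 1) for genes whose mean reached 10 normalized counts, with Benjamini-Hochberg adjustment over all 18717 genes. Fold changes on this scale understate those of low genes. Shares and ratios of reads were compared with exact permutation tests. The scripts were tested on simulated data. All 10 members are named. From each list of partners, at most 3 members with the largest absolute log2 fold change among those that passed are named. NEK2, MYC, the other SRSF genes and the markers of the cell line are named whether or not they passed, and SRPK1 was added after its values were seen. Genes with a pattern like that of SRSF1 are not reported here. The members and lists were chosen with earlier results of these data known. The 17 alternatives changed the pseudocount (0.1 or 5), the filter (none, or a mean of 50) and the scaling (upper quartile, equal total, quantile). Others dropped the trend, blocked on replicate number or left out 1 library. Shares without si-CTRL replicate 1 were added after seeing the data. The recovered reads were also tested in edgeR 4.0.16 (TMM, quasi-likelihood) and in DESeq2 1.42.0, which called 8004 and 8215 of all genes at an adjusted p of at most 0.05. Transcripts were those of GENCODE 29 (GRCh38), taken as the principal isoform.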

Additional observations from a re-analysis of the deposited data

How the results depend on the processing

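The number of SR genes at an adjusted p of at most 0.05 was 3, and it was 1 with equal total scaling and with quantile normalization (SRSF1, as lower) and 1 without an intensity trend (SRSF5). It ranged from 1 to 5 when single libraries were omitted, with 5 without si-CTRL replicate 1 and 1 without si-NEK2 replicate 1 or without si-NEK2 replicate 2 (SRSF5 in both). Over all genes 8063 passed, and 5904 to 9340 with single libraries omitted. The cause of these changes was not tested. In a check of pairing, deviations from the group mean correlated at -0.09, 0.05 and -0.15 between same-numbered libraries. Between unlike numbers the correlations lay between -0.12 and 0.18. With 3 libraries in each group, such correlations cannot decide whether same-numbered libraries shared a round of transfection or a batch. With the replicate block 2 members passed and 6883 of all genes, and SRSF3 lost its call (adjusted p = 0.0559 from limma).

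Values near 0 changed sign. SRSF2 was at -0.0083 (upper quartile), -0.0706 (equal total), -0.0727 (quantile) and -0.0248 (si-CTRL replicate 1 omitted). SRSF10 was at -0.0498 with equal total and -0.0608 with quantile scaling. SRSF6 was at 0.0060 without si-CTRL replicate 1. SRSF7 was at 0.0077 (si-CTRL replicate 2 omitted), 0.0154 (si-NEK2 replicate 1 omitted) and 0.0036 (si-NEK2 replicate 2 omitted). With single libraries omitted, the log2 fold change ranged from -0.0248 to 0.12 for SRSF2, from -0.23 to 0.0060 for SRSF6 and from -0.0264 to 0.0154 for SRSF7. Equal total scaling moved the share of higher genes among those that passed from 50.6% to 32.9%. Per kb of transcript, the share of SRSF1 in the family differed by -3.95 percentage points in place of -2.58, and that of SRSF9 by 3.93 in place of 1.97. The 0 members past the thresholds of the study stayed at 0 under all 17 alternatives. Of the partner lists, edgeR called 7 SR-related partners (7 in limma), 2 kinases and import factors (3), 9 hnRNPs (8), 5 NMD factors (5) and 4 export and junction partners (3, with 1 now lower). Every member had 2819 reads or more in every library. Counting error was close to the spread between libraries for SRSF6 in si-NEK2 cells (1.22% against a coefficient of variation of 1.41%) and SRSF7 in si-CTRL cells (1.04% against 1.57%).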
